A study of Mus musculus with 12 samples.

Results

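The comparison described here set mifepristone-treated cells against vehicle-treated cells, both grown without added NaCl. It used 6 of the 12 RNA-seq libraries of the series, 3 in each group, labelled A, B and C. The cells were a single subclone (53a) of IMCD3, a line of epithelial cells from the mouse inner medullary collecting duct. They carry a dominant-negative mutant of a kidney tubule transcription factor, and mifepristone switches its expression on. The other 6 libraries came from the same pair of treatments with 100 mM NaCl added to the medium, and they enter the fit only to help estimate the spread and to set the effect without NaCl beside the effect with it. Cells without the inducible mutant are not among the libraries, so the mutant and mifepristone's own action on steroid receptors cannot be told apart here. All groups shared the low glucose medium with 10% serum, and neither the dose of mifepristone nor the time of treatment is stated in the labels. Polyadenylated RNA was sequenced, and the authors' deposited values are FPKM, that is, fragments scaled to transcript length and library size. Of the 48034 genes in the table, 14044 passed the filter, a level of 1 FPKM or more in 3 or more of the 12 libraries, and entered the test.

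The mutated factor is a homeodomain protein of the epithelia of kidney, liver, pancreas and gut. It binds DNA as a dimer at palindromic sites and, in the kidney, activates genes of tubule differentiation, solute transport and the primary cilium. A dominant-negative form interferes with the normal protein that the same cell makes, so transcripts that depend on the factor can fall. Mifepristone is also an antagonist of the progesterone and glucocorticoid receptors, which are themselves transcription factors.

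The 6 libraries held between 43440230 and 49069539 reads assigned to genes, recovered as whole numbers from the deposited values, so that 3 reads correspond to 0.0611 to 0.0691 CPM. Libraries of the same group correlated at Pearson r 0.9893 to 0.9971 over the tested genes, against 0.9522 to 0.9612 between the groups. The labels do not say whether A, B and C were separate cultures, so p-values reflect the spread among these libraries alone, and that spread may be purely technical. One technical trend ran across the groups. Within a group, the deviation of a gene from its group mean tracked its exon length, with Spearman coefficients across genes of 0.464, 0.423 and -0.513 in mifepristone A, B and C, against -0.444, 0.273 and 0.358 in vehicle A, B and C. All 9 epithelial markers were expressed, with a summed level of 991 to 1150 FPKM in mifepristone libraries and 845 to 905 FPKM in vehicle libraries. Only 4 of 13 markers of collecting duct principal cells reached 1 FPKM in any of the 6 libraries, and Aqp2, the vasopressin-regulated water channel that defines those cells, had 0 reads in all 6, so the label of collecting duct rests on the line's origin rather than on these transcripts. Of 8 endothelial markers none reached 1 FPKM in any of the 6 libraries, and of 8 leukocyte markers 2 did, with Adgre1 and Cd3e among those at 0 reads.

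Mifepristone changed a majority of the tested genes, few of them by 2-fold or more. Of the 14044 tested genes, 8391 (59.7%) passed an adjusted p of 0.05 in limma's moderated test on log2(FPKM + 0.5), 3970 (28.3%) higher and 4421 (31.5%) lower with mifepristone. The 3 mifepristone and 3 vehicle values did not overlap for 8332 genes (59.3%). Among the called genes, 26.2% had a log2 change under 0.25. On this log2(FPKM + 0.5) scale a change of at least 2-fold was called for 574 genes higher (4.09%) and 327 lower (2.33%). Of those, 90 rose and 43 fell by at least 4-fold. Fold classes here and below are on this scale unless another is named, and it understates the change of low genes. Entpd8, 17.5 times lower in mean FPKM, thus counts as a fall of 2 to 4-fold. The median log2 change over all tested genes was -0.01.

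The levels of the genes with larger changes are given as a description, since the fold limit and the filter partly set them. Genes called higher by at least 2-fold had a median of 9.91 FPKM with mifepristone and 2.94 FPKM with vehicle, and 188 of them (32.8%) were below 1 FPKM in vehicle-treated cells. Genes called lower by at least 2-fold had a median of 2.11 FPKM with mifepristone and 7.28 FPKM with vehicle, and 85 of them (26.0%) were at or above 20 FPKM in vehicle-treated cells. The filter on low values works on all 12 libraries, so a gene silent with vehicle could enter only through another group. The authors' deposited table for this contrast called 908 genes, 596 higher and 312 lower, with a smallest absolute log2 change of 1.1219. Of those, 691 were tested here, and all 430 that the authors' deposited table gave as higher and all 261 that it gave as lower were called in the same direction. Both sets of calls rest on libraries of the same series, so this overlap is not independent. Since the deposited calls hold no smaller change, the 908 and the 8391 called here are unlike counts.

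Among the rises, several genes were near silence with vehicle and moderately expressed with mifepristone. Within the limits given next, the 12 largest by the log2 ratio of recovered reads were Sohlh1, Kcnt1, Saa3, Pou2f3, Ly6d, Tgm5, Trex2, Slpi, Ass1, Zfp750, Xdh and Orm1. Genes were ranked only if called both on FPKM and on recovered reads, with groups that did not overlap. They also needed a mean of at least 1 FPKM in the higher group and a symbol that is not provisional. Gm17110, left out by its symbol, had 342 reads with mifepristone and 3 with vehicle, a depth-scaled ratio of 109. Sohlh1, a germ cell transcription factor, had 8720 reads summed over the mifepristone libraries and 1 read over the vehicle libraries, a depth-scaled ratio of 8340 with an exact 95% counting interval of 1500 to 329000. Pou2f3, the POU factor required for tuft cells, had 488 reads with mifepristone and 0 with vehicle, at least 156-fold higher when 3 reads are allowed over the vehicle group. Ly6d, a surface protein of stratified epithelium, had 521 reads with mifepristone and 2 with vehicle, a ratio of 249 with an interval of 68.6 to 2060. Intervals and floors cover counting error only. Sohlh1, Pou2f3 and Ly6d were therefore expressed at 1 FPKM or more in every mifepristone library and practically undetected in every vehicle library.

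Tgm5, a transglutaminase that crosslinks the cornified envelope of skin, read 2.6, 2.54 and 2.46 FPKM in the mifepristone libraries, against 0.0219, 0.0142 and 0.013 FPKM in the vehicle libraries (log2 fold change 2.55, SE 0.056, limma adjusted p = 3.64e-11). Zfp750, a zinc finger regulator of epidermal differentiation, read 4.19, 4.04 and 3.72 FPKM with mifepristone, against 0.0357, 0.0346 and 0.0509 FPKM with vehicle (log2 fold change 3.05, SE 0.081, limma adjusted p = 1.55e-10). Trex2, a 3′ DNA exonuclease abundant in keratinocytes, read 1.71, 1.79 and 1.88 FPKM in mifepristone-treated cells, against 0, 0.022 and 0 FPKM in vehicle-treated cells (log2 fold change 2.18, SE 0.069, limma adjusted p = 4.98e-10). Groups without overlap were a condition of the choice, and for all 3 genes every vehicle value was under 0.1 FPKM. Changes of simple-epithelial keratins, which went both ways, are given further on.

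Slpi, a secreted inhibitor of neutrophil proteases, read 51.5, 53.6 and 64.7 FPKM with mifepristone, against 0.528, 0.454 and 0.697 FPKM with vehicle (log2 fold change 5.75, SE 0.11, limma adjusted p = 1.41e-11). Orm1, the acute phase protein orosomucoid, had 190 reads with mifepristone and 1 with vehicle, a ratio of 182 with an interval of 32.2 to 7210. Its near-identical neighbour Orm3 had 129 reads with mifepristone and 3 with vehicle, and how reads were divided between the copies is not given. Xdh, the xanthine dehydrogenase that ends purine breakdown, read 2.47, 2.61 and 2.15 FPKM in the mifepristone libraries, against 0.0503, 0.039 and 0.00897 FPKM in the vehicle libraries (log2 fold change 2.45, SE 0.075, limma adjusted p = 3.79e-10). Kcnt1, a sodium-activated potassium channel, read 4.85, 4.55 and 3.63 FPKM with mifepristone, against 0.00972, 0.0141 and 0.00216 FPKM with vehicle (log2 fold change 3.24, SE 0.089, limma adjusted p = 1.97e-10). Of the 12 genes, only Slpi and Xdh had a ChIP peak that the authors marked as nearby.

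**Figure D1:**
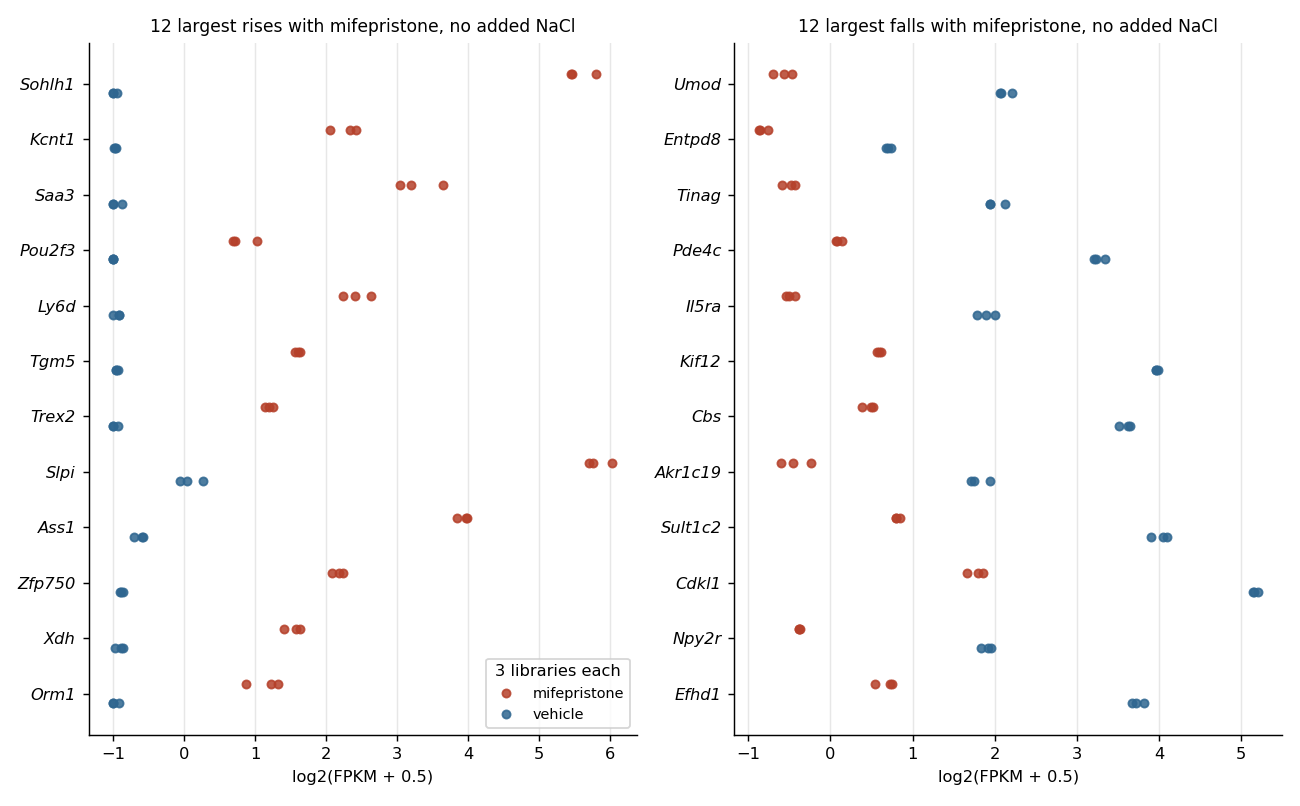
Deposited expression of the 12 largest rises (left) and 12 largest falls (right) on a log2(FPKM + 0.5) axis, with 1 point per library, mifepristone above vehicle on each line. Vehicle points of the risen genes lie at the left edge, at or below 0.697 FPKM, whereas the fallen genes stay detectable with mifepristone. The genes were chosen to have groups that do not overlap.

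The genes with the largest falls lost most of their transcript but stayed detectable, and the list held proteins of the tubule, enzymes and receptors. By the same ranking and limits these were Umod, Entpd8, Tinag, Pde4c, Il5ra, Kif12, Cbs, Akr1c19, Sult1c2, Cdkl1, Npy2r and Efhd1, and 11 of the 12, all but Umod, had a ChIP peak marked nearby by the authors. Tinag, a tubular basement membrane protein, read 0.165, 0.219 and 0.244 FPKM in mifepristone-treated cells, against 3.84, 3.35 and 3.34 FPKM in vehicle-treated cells (log2 fold change -2.50, SE 0.073, limma adjusted p = 2.75e-10). Pde4c, a cAMP phosphodiesterase, read 0.555, 0.599 and 0.553 FPKM with mifepristone, against 8.77, 8.87 and 9.61 FPKM with vehicle (log2 fold change -3.16, SE 0.065, limma adjusted p = 2.45e-11). Cdkl1, a ciliary kinase of the cyclin-dependent family, read 3.12, 2.98 and 2.68 FPKM in the mifepristone libraries, against 35, 36.2 and 34.9 FPKM in the vehicle libraries (log2 fold change -3.39, SE 0.054, limma adjusted p = 5.06e-12). The spread within each group was small beside these gaps.

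Sult1c2, a cytosolic sulfotransferase, read 1.3, 1.24 and 1.25 FPKM with mifepristone, against 16.6, 16 and 14.5 FPKM with vehicle (log2 fold change -3.20, SE 0.068, limma adjusted p = 3.33e-11). Efhd1, a calcium-binding protein of mitochondria, read 1.18, 0.956 and 1.16 FPKM in mifepristone-treated cells, against 13.5, 12.7 and 12.2 FPKM in vehicle-treated cells (log2 fold change -3.06, SE 0.068, limma adjusted p = 3.83e-11). For both genes every mifepristone value lay below every vehicle value, which the choice of the 12 genes required. Il5ra, the interleukin 5 receptor chain better known from eosinophils, read 0.24, 0.207 and 0.186 FPKM with mifepristone, against 2.93, 3.22 and 3.49 FPKM with vehicle (log2 fold change -2.38, SE 0.064, limma adjusted p = 1.55e-10). Npy2r, a receptor for neuropeptide Y, read 0.267, 0.275 and 0.268 FPKM in the mifepristone libraries, against 3.05, 3.28 and 3.39 FPKM in the vehicle libraries (log2 fold change -2.28, SE 0.078, limma adjusted p = 9.09e-10). Entpd8, an ectonucleotidase, read 0.0486, 0.0935 and 0.052 FPKM with mifepristone, against 1.1, 1.13 and 1.17 FPKM with vehicle (log2 fold change -1.53, SE 0.07, limma adjusted p = 9.53e-09). In bulk RNA a lower level can come from fewer cells with the transcript or from less transcript per cell, and these cannot be told apart.

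The share of genes with the authors' ChIP mark rose step by step with the size of a fall on the log2(FPKM + 0.5) scale. With the size of a rise it increased only up to the 2 to 4-fold class. The mark was at 40 of the 43 genes lower by at least 4-fold (93.0%), at 166 of 284 lower by 2 to 4-fold (58.5%), at 369 of 1055 lower by a log2 change of 0.5 to 1 (35.0%) and at 800 of 3039 lower by less (26.3%). Genes that were not called carried it in 22.5% of cases, 1274 of 5653. On the rising side the share was 30.0% at 4-fold or more, 27 of 90 genes, and 39.7% at 2 to 4-fold, 192 of 484 genes. It was 37.4% at a log2 change of 0.5 to 1, 349 of 933 genes, and 31.3% below that, 770 of 2463 genes. Over all tested genes it was 28.4%. Read the other way, genes with the mark moved in both directions, with 33.6% called higher and 34.5% called lower, beside 26.2% and 30.3% of genes without the mark. The distance within which a peak counted as nearby is not stated, and a mark does not say that a peak acts on that gene.

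**Figure D2:**
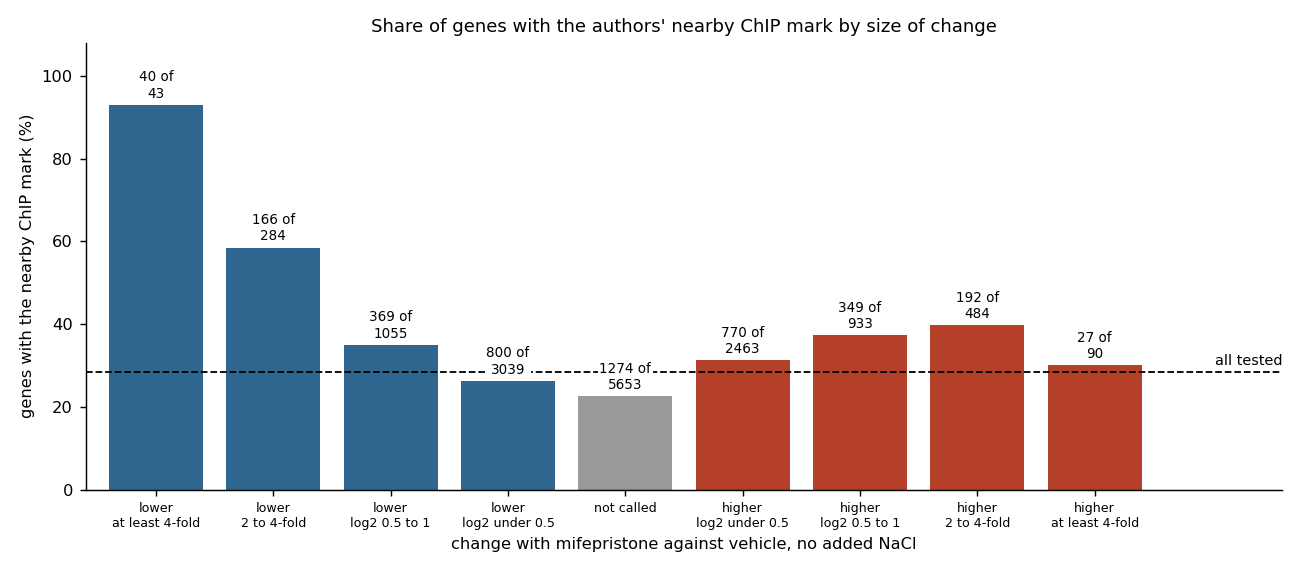
Share of tested genes with the authors' nearby ChIP mark (per cent, with the counts above each bar) by direction and size of the change with mifepristone against vehicle. The bar of genes lower by at least 4-fold reaches 93.0% and the dashed line for all tested genes stands at 28.4%.

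The palindrome that the mutated factor is known to recognise, GTTAATNATTAAC, was searched on both strands in the 250 bases before each start listed in the RefSeq promoter table (GRCm38.p6). A gene can have several listed starts. Of the promoters 37.1% opened an annotated transcript, by exact match of their first transcribed bases to GENCODE M21. The palindrome contains the 6-letter element GTTAAT and its reverse complement ATTAAC, so a full match holds both. An exact match was found in 3 of 32851 promoters and in none of the tested genes' promoters, and up to 2 mismatches in the 12 fixed letters were then allowed, a choice made after that count was seen. With that allowance 1.24% of all promoters held a match. Of the 43 genes lower by at least 4-fold 37 had a promoter in the table, and 6 of these genes held a match (16.2%). A gene with several promoters has several chances of a match, so shares per gene and per promoter are unlike measures. The element GTTAAT or its reverse complement was in 6.43% of all promoters and in a promoter of 5 of those 37 genes (13.5%). For the other size classes fewer than 80% of genes had a promoter in the table, so their shares are not given. The 6 windows are shown because they belong to genes at the top of the falls, with the matched letters in capitals and up to 24 bases on each side, 5′ to 3′ on the gene's strand.
Kif12, chr4:63172132-63172191, minus strand: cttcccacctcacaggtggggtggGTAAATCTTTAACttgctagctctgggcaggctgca
Umod, chr7:119479428-119479488, minus strand: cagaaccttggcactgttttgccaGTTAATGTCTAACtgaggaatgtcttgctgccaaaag
Tinag, chr9:77045820-77045880, minus strand: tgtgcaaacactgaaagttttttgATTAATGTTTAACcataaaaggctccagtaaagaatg
Pkhd1, chr1:20618100-20618160, minus strand: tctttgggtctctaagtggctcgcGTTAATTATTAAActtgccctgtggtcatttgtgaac
Akr1c19, chr13:4233548-4233608, plus strand: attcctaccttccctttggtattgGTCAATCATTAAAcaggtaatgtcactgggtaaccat
Akr1c12, chr13:4279529-4279589, minus strand: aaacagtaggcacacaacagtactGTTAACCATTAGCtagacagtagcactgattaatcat

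The match in the promoter of Pkhd1, the gene of fibrocystin, differs from the palindrome at 1 letter, whereas the other 5 differ at 2 letters. The Pkhd1 match lies 79 to 67 bases before the listed start. For Akr1c19 the listed start lies inside the annotated gene, which begins at chr13:4228700. Kif12 encodes a kinesin, and its match lies 36 to 24 bases before the start. Umod, whose promoter also holds a match, was among the 3 genes lower by at least 4-fold without the ChIP mark. A match to these letters is a description of the sequence and not evidence that the factor binds there.

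Below the 4-fold limit, 2 further promoters with a single mismatch belonged to named enzymes or transport proteins. Pcbd1 encodes a dehydratase that recycles the pterin cofactor of phenylalanine hydroxylase and also binds the mutated factor's family as a dimerisation cofactor, and its log2 change was -1.58. Tmed6, a cargo receptor of the early secretory pathway, changed by -1.81. Both carried the mark. Their windows are given because, with Pkhd1, they come closest to the palindrome among the genes lower by at least 2-fold that had a promoter in the table.
Pcbd1, chr10:61089283-61089330, plus strand: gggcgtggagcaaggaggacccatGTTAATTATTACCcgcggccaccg
Tmed6, chr8:107065660-107065720, minus strand: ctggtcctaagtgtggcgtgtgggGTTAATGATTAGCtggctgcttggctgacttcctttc

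Steroid receptors bear on mifepristone's own action, and the receptor genes themselves were expressed at low to moderate levels. Counts over gene lists are read beside the 28.3% higher and 31.5% lower of all tested genes. Some members passed the filter only through groups where they were high, so shares of tested members are not those of whole lists. Of 15 genes of steroid receptors and their cofactors, 11 were tested, 5 higher and 4 lower. Nr3c1, the glucocorticoid receptor, read 17.3, 17.1 and 14.8 FPKM in mifepristone-treated cells, against 11.5, 12.2 and 12.7 FPKM in vehicle-treated cells (log2 fold change 0.42, SE 0.059, limma adjusted p = 0.000107). Pgr, the progesterone receptor, read 1.07, 1.06 and 1.07 FPKM with mifepristone, against 0.259, 0.243 and 0.241 FPKM with vehicle (log2 fold change 1.07, SE 0.057, limma adjusted p = 3.32e-08). Both receptor genes were higher, Pgr by the larger amount and from the lower level. Nr3c2, the mineralocorticoid receptor, read 0.54, 0.523 and 0.337 FPKM in the mifepristone libraries, against 0.913, 1.01 and 0.912 FPKM in the vehicle libraries, below the filter. Hsd11b2, the enzyme that inactivates glucocorticoids in the aldosterone-sensitive tubule, read 7.34, 7.75 and 8.61 FPKM with mifepristone, against 1.6, 1.56 and 1.52 FPKM with vehicle (log2 fold change 2.03, SE 0.067, limma adjusted p = 7.52e-10), without overlap.

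Genes known to be induced by glucocorticoids did not move as a block: of 25, 18 were tested, 9 higher and 4 lower, with a median log2 change of 0.22. Tsc22d3, the leucine zipper protein GILZ and a standard readout of the receptor, read 4.81, 4.81 and 6.03 FPKM in mifepristone-treated cells, against 5.47, 5.06 and 4.83 FPKM in vehicle-treated cells (log2 fold change 0.02, limma adjusted p = 0.85), and its groups overlapped. Fkbp5, an immunophilin in the receptor complex, read 4.82, 4.93 and 5.07 FPKM with mifepristone, against 3.86, 3.96 and 3.69 FPKM with vehicle (log2 fold change 0.33, SE 0.041, limma adjusted p = 3.99e-05). Klf9, a Krüppel-like factor induced by several steroids, read 13.5, 13.9 and 11.1 FPKM in the mifepristone libraries, against 4.45, 4.8 and 4.71 FPKM in the vehicle libraries (log2 fold change 1.37, SE 0.073, limma adjusted p = 3.73e-08). Readouts of the same receptor thus ranged from no detectable change to a rise of more than 2-fold. Bcl6, a transcriptional repressor, read 8.93, 8.39 and 7.92 FPKM with mifepristone, against 1.87, 1.9 and 1.87 FPKM with vehicle (log2 fold change 1.90, SE 0.046, limma adjusted p = 8.06e-11). Per1, a clock gene, had a log2 change of 0.28 with an adjusted p of 0.0118 in limma, which passes 0.05 and misses 0.01. Nfkbia, the inhibitor of NF-kB, read 87.7, 88 and 97.8 FPKM in mifepristone-treated cells, against 16.6, 15 and 15.3 FPKM in vehicle-treated cells (log2 fold change 2.51, SE 0.064, limma adjusted p = 1.28e-10). The largest members in the other direction were the metallothioneins, described with the zinc transporters.

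Of 26 tested kidney lineage transcription factors 13 fell (50%) and 10 rose (38.5%), beside 31.5% and 28.3% of all tested genes, with a median log2 change of -0.21. Pax8, which marks the renal tubule from its earliest stage, read 18.6, 17.9 and 17.6 FPKM with mifepristone, against 27.5, 28 and 27.2 FPKM with vehicle (log2 fold change -0.60, SE 0.034, limma adjusted p = 5.14e-08). Pax2, its relative in the ureteric bud lineage, read 6.99, 6.62 and 5.89 FPKM in the mifepristone libraries, against 8.51, 8.31 and 9.69 FPKM in the vehicle libraries (log2 fold change -0.42, SE 0.072, limma adjusted p = 0.000465). Bicc1, listed here for its role in tubule development, encodes an RNA-binding protein whose loss causes renal cysts in mice, and read 35, 34 and 26.9 FPKM with mifepristone, against 77.1, 83.7 and 86.5 FPKM with vehicle (log2 fold change -1.36, SE 0.085, limma adjusted p = 1.3e-07). Glis3 and Glis2, zinc finger factors linked to cystic disease, changed by -1.14 and -0.98. Irx1, Irx2 and Irx3, homeobox factors of the nephron's middle segments, changed by -0.87, -0.68 and -0.79. All 3 of these homeobox genes were thus lower with mifepristone.

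In the other direction Sall1, a zinc finger factor of nephron progenitors, read 26, 25.2 and 21.3 FPKM in mifepristone-treated cells, against 6.02, 6.9 and 6.61 FPKM in vehicle-treated cells (log2 fold change 1.81, SE 0.07, limma adjusted p = 2.5e-09). Sox9, a marker of tubule injury and repair, changed by 0.74 and Sox4 by 0.68. Tfcp2l1, a factor of the collecting duct, read 2.01, 2.05 and 1.48 FPKM with mifepristone, against 3.18, 3.73 and 4.24 FPKM with vehicle (log2 fold change -0.85, SE 0.12, limma adjusted p = 8.38e-05), and in each group the library with the negative length trend, mifepristone C or vehicle A, was the lowest. Gata3, another collecting duct factor, did not exceed 0.3 FPKM in any of these libraries. Of 33 genes of cystic and tubulointerstitial kidney disease, 30 were tested, 18 lower (60%) and 5 higher (16.7%), with a median of -0.25, and the number higher was 3 without mifepristone A or without mifepristone B. Cys1, the gene of the ciliary membrane protein cystin, read 1.94, 2.2 and 2.19 FPKM in the mifepristone libraries, against 14.9, 14.3 and 13.3 FPKM in the vehicle libraries (log2 fold change -2.49, SE 0.058, limma adjusted p = 5.89e-11). Lrp2, the endocytic receptor megalin, fell to 0.226, 0.242 and 0.152 FPKM in mifepristone libraries, against 1.01, 1.27 and 1.3 FPKM in vehicle libraries (log2 fold change -1.26, SE 0.09, limma adjusted p = 3.7e-07).

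**Figure D3:**
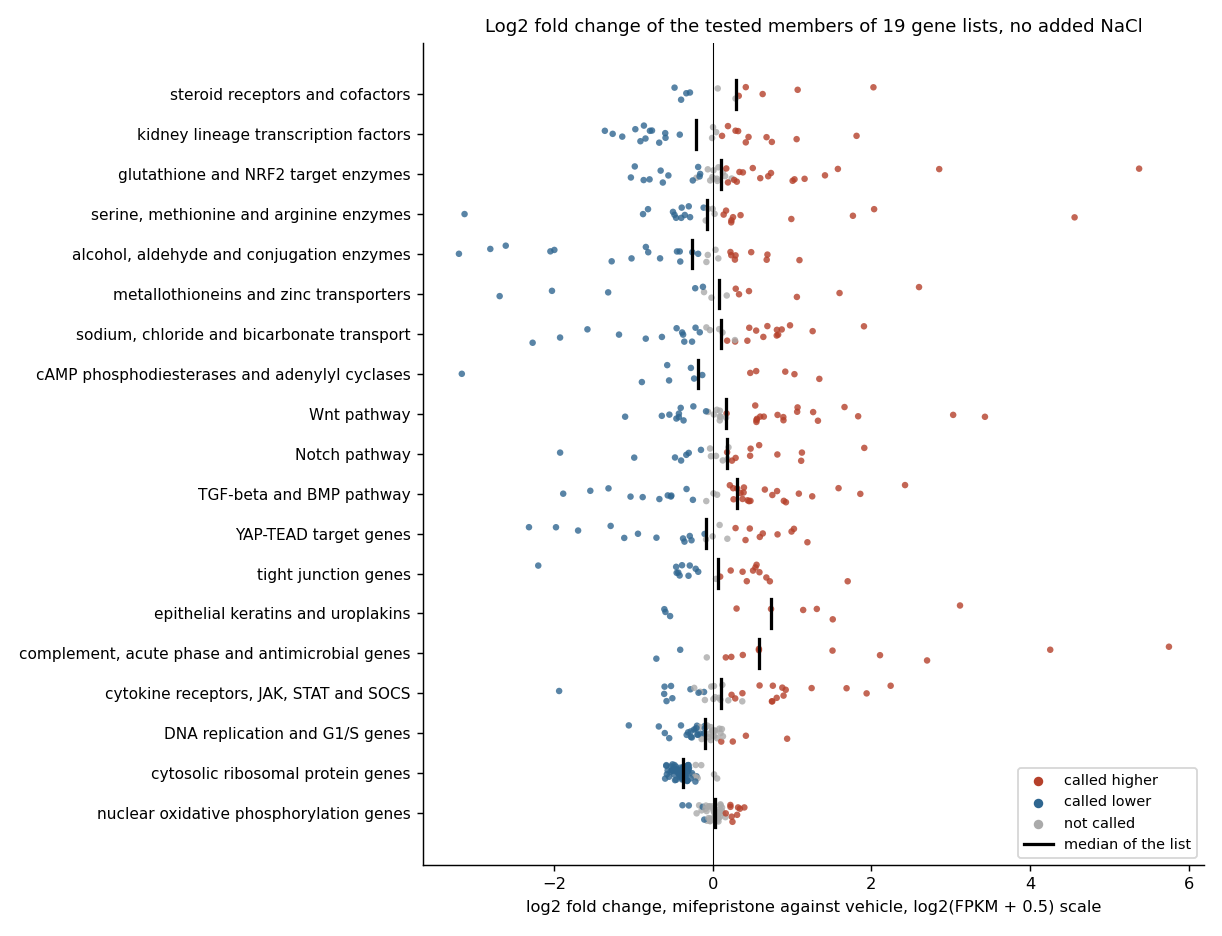
Log2 fold change of every tested member of 19 gene lists, mifepristone against vehicle without added NaCl, with 1 point per gene, coloured by its call, and a black bar at the list's median. Ribosomal protein genes form a narrow cloud at a median of -0.38, whereas most other lists spread on both sides of 0.

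Amino acid metabolism held large changes in opposite directions. Of 26 tested enzymes of serine, methionine and arginine metabolism, 10 were higher and 12 lower, with a median of -0.07. Ass1, which condenses citrulline and aspartate in arginine synthesis, read 13.9, 15.3 and 15.1 FPKM with mifepristone, against 0.163, 0.167 and 0.111 FPKM with vehicle (log2 fold change 4.56, SE 0.074, limma adjusted p = 5.18e-12). Asl, the enzyme of the next step, went the other way, with 4.75, 5.02 and 6.06 FPKM in mifepristone-treated cells, against 7.8, 7.65 and 7.47 FPKM in vehicle-treated cells (log2 fold change -0.50, SE 0.069, limma adjusted p = 8.37e-05). Arg1, which splits arginine into ornithine and urea, read 1.98, 2.02 and 2.04 FPKM with mifepristone, against 0.281, 0.227 and 0.209 FPKM with vehicle (log2 fold change 1.77, SE 0.09, limma adjusted p = 2.16e-08). The enzyme before argininosuccinate and the one after it therefore did not move together.

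Cbs, which commits homocysteine to cysteine synthesis, read 0.908, 0.93 and 0.803 FPKM in the mifepristone libraries, against 10.9, 11.8 and 12 FPKM in the vehicle libraries (log2 fold change -3.13, SE 0.052, limma adjusted p = 5.8e-12). Cth, the second enzyme of that route, read 0.181, 0.265 and 0.152 FPKM with mifepristone, against 0.595, 0.488 and 0.435 FPKM with vehicle, below the filter. Mtr, which remethylates homocysteine to methionine, changed by -0.82. In serine synthesis, Psat1, the phosphoserine aminotransferase, read 167, 163 and 174 FPKM in mifepristone-treated cells, against 42.3, 39.6 and 40.02 FPKM in vehicle-treated cells (log2 fold change 2.03, SE 0.045, limma adjusted p = 3.52e-11). Phgdh, which feeds Psat1, read 185, 188 and 222 FPKM with mifepristone, against 208, 190.2 and 196 FPKM with vehicle (limma adjusted p = 0.986), and its groups overlapped. Among amino acid transporters, 8 of 20 tested were higher and 6 lower. Slc36a4, a high-affinity proline and tryptophan transporter, changed by 0.97 and Slc16a10, an aromatic amino acid carrier, by -0.75.

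Of 40 tested glutathione and NRF2 target enzymes, 17 were higher and 11 lower, with a median of 0.10. Gstm7, a mu-class glutathione transferase, read 41, 43.3 and 47.6 FPKM in the mifepristone libraries, against 0.649, 0.488 and 0.578 FPKM in the vehicle libraries (log2 fold change 5.37, SE 0.084, limma adjusted p = 4.19e-12), and Gstm2 of the same class read 124, 126 and 143 FPKM with mifepristone, against 49.8, 49.1 and 47.1 FPKM with vehicle (log2 fold change 1.41, SE 0.053, limma adjusted p = 1.99e-09). Gstm5 and Gstm6 changed by 0.70 and 1.58, and Gstm1 and Gstm3 were not called. These genes lie in a cluster of similar copies, so reads may be divided between them unevenly. Mgst1, a microsomal glutathione transferase, read 3.82, 4.27 and 4.95 FPKM in mifepristone-treated cells, against 0.218, 0.133 and 0.153 FPKM in vehicle-treated cells (log2 fold change 2.85, SE 0.096, limma adjusted p = 7.63e-10).

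Enzymes of glutathione synthesis and recycling are given next. Gsr, glutathione reductase, changed by -1.03, and Gclm, the modifier subunit of the rate-limiting ligase, by -0.87. Gclc, its catalytic subunit, read 11.5, 10.8 and 10.1 FPKM with mifepristone, against 11.3, 11 and 11.6 FPKM with vehicle (log2 fold change -0.06, limma adjusted p = 0.394). Nfe2l2, which encodes NRF2 itself, read 32.3, 31.7 and 32.6 FPKM in the mifepristone libraries, against 28.4, 28.1 and 28 FPKM in the vehicle libraries (log2 fold change 0.19, SE 0.03, limma adjusted p = 0.000205), a small difference that exceeded the spread. Srxn1, sulfiredoxin, and Hmox1, haem oxygenase, both NRF2 targets, changed by 1.16 and 0.60. Cbr1 and Cbr3, neighbouring carbonyl reductases also in the NRF2 set, changed by -0.80 and -0.98, so targets of that factor were found on both sides.

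Of 27 tested alcohol, aldehyde and conjugating enzymes 15 fell and 8 rose, with a median of -0.26. The fall included enzymes of retinoic acid synthesis. Aldh1a2, a retinaldehyde dehydrogenase, read 3.3, 3.04 and 2.99 FPKM with mifepristone, against 25.4, 25.1 and 23.7 FPKM with vehicle (log2 fold change -2.80, SE 0.04, limma adjusted p = 4.19e-12). Adh7, which oxidises retinol and other alcohols, read 3.63, 3.3 and 3.65 FPKM in mifepristone-treated cells, against 24.1, 24.7 and 23.4 FPKM in vehicle-treated cells (log2 fold change -2.61, SE 0.055, limma adjusted p = 2.96e-11). Dhrs3, a retinaldehyde reductase, changed by -1.02, whereas Aldh1a1, another retinaldehyde dehydrogenase, and Rdh10, a retinol dehydrogenase, changed by 0.69 and 0.28. Akr1c12, an aldo-keto reductase with the promoter window above, read 1.13, 1.02 and 1.04 FPKM with mifepristone, against 5.95, 6.07 and 5.84 FPKM with vehicle (log2 fold change -2.05, SE 0.12, limma adjusted p = 6.01e-08). Akr1c13, a close copy of it, changed by -1.997, and reads of the pair may be shared. Cyp1b1, a cytochrome P450 that metabolises oestrogens, changed by 1.09.

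Among metallothioneins and zinc transporters 14 genes were tested, 6 higher and 5 lower. Mt1, metallothionein 1, read 40.4, 40.9 and 51.6 FPKM in the mifepristone libraries, against 188, 178 and 176 FPKM in the vehicle libraries (log2 fold change -2.03, SE 0.12, limma adjusted p = 7.18e-08). Mt2 read 8.74, 11 and 11.3 FPKM with mifepristone, against 72.8, 69.1 and 64.7 FPKM with vehicle (log2 fold change -2.69, SE 0.11, limma adjusted p = 5.11e-09). The exons of Mt2 share 73.5% of their bases with those of another annotated gene. Slc30a1, the zinc exporter of the plasma membrane, read 22.1, 21.6 and 21.7 FPKM in mifepristone-treated cells, against 3.04, 3.24 and 3.26 FPKM in vehicle-treated cells (log2 fold change 2.60, SE 0.037, limma adjusted p = 4.19e-12), and Slc30a4, a vesicular zinc transporter, read 28.5, 27.2 and 25.4 FPKM with mifepristone, against 8.25, 8.7 and 8.81 FPKM with vehicle (log2 fold change 1.598, SE 0.044, limma adjusted p = 1.89e-10). All 3 mifepristone values of either transporter lay above every vehicle value. The importer Slc39a10 changed by 1.06 and Slc39a8 by -1.32. Mtf1, the zinc-sensing factor that drives Mt1 and Slc30a1 alike, was not called.

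Sterol uptake and sensing genes fell in 9 of 18 tested cases and rose in 5. Vldlr, a receptor of the lipoprotein receptor family, read 13.4, 13.6 and 11.4 FPKM in the mifepristone libraries, against 41.6, 44.1 and 44.3 FPKM in the vehicle libraries (log2 fold change -1.72, SE 0.064, limma adjusted p = 1.97e-09). Srebf2, the master regulator of cholesterol synthesis, read 48.1, 50.01 and 39.8 FPKM with mifepristone, against 60.7, 65.8 and 70.03 FPKM with vehicle (log2 fold change -0.51, SE 0.083, limma adjusted p = 0.0003). Both fell without overlap of the groups. Npc1, which exports cholesterol from lysosomes, read 14.3, 13.6 and 11 FPKM in mifepristone-treated cells, against 2.85, 3.16 and 3.36 FPKM in vehicle-treated cells (log2 fold change 1.89, SE 0.085, limma adjusted p = 8.9e-09). Mylip, the ubiquitin ligase that removes lipoprotein receptors, read 15.8, 15.1 and 14.9 FPKM with mifepristone, against 6.18, 5.94 and 6.26 FPKM with vehicle (log2 fold change 1.25, SE 0.041, limma adjusted p = 6.57e-10). Of 21 tested genes of fatty acid synthesis, 11 fell (52.4%) and 5 rose (23.8%), and 8 rose when mifepristone C was left out. Elovl7 and Elovl6, chain-elongating enzymes, changed by -1.04 and -0.84. Fasn, fatty acid synthase, read 55.7, 56.8 and 38.4 FPKM in the mifepristone libraries, against 38.9, 45.5 and 50.4 FPKM in the vehicle libraries and was not called (limma adjusted p = 0.397), and it passed 0.05 as higher, with a log2 change of 0.33, when mifepristone C was left out.

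Of 32 tested genes of sodium, chloride and bicarbonate transport, 14 were higher (43.8%) and 13 lower (40.6%), beside 28.3% and 31.5% of all tested genes. Slc4a11, a borate transporter homologue that conducts protons, read 4.14, 4.44 and 3.91 FPKM with mifepristone, against 20.2, 22.3 and 23.6 FPKM with vehicle (log2 fold change -2.27, SE 0.065, limma adjusted p = 2.75e-10). Car2, the cytosolic carbonic anhydrase of acid-base transporting cells, read 2.12, 2.29 and 2.05 FPKM in mifepristone-treated cells, against 9.95, 9.83 and 8.96 FPKM in vehicle-treated cells (log2 fold change -1.92, SE 0.061, limma adjusted p = 5.45e-10). Wnk4, a kinase that regulates salt transporters of the distal tubule, read 2.27, 2.23 and 2.22 FPKM with mifepristone, against 7.26, 8.03 and 7.82 FPKM with vehicle (log2 fold change -1.58, SE 0.05, limma adjusted p = 4.68e-10). These 3 falls left every gene detectable with mifepristone. Cftr, a chloride channel, had the largest rise among the tested members. It read 3.8, 3.82 and 3 FPKM with mifepristone, against 0.586, 0.601 and 0.532 FPKM with vehicle (log2 fold change 1.91, SE 0.086, limma adjusted p = 8.76e-09). Scnn1a, the alpha subunit of the epithelial sodium channel, rose to 2.24, 2.06 and 1.94 FPKM in mifepristone libraries, against 0.508, 0.627 and 0.597 FPKM in vehicle libraries (log2 fold change 1.26, SE 0.081, limma adjusted p = 1.48e-07). Bsnd, the chloride channel subunit barttin, changed by 0.97.

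Potassium channels were mostly silent, with 7 of 36 listed genes tested. Kcnj2, an inward rectifier, read 5.52, 4.91 and 4.35 FPKM in the mifepristone libraries, against 0.865, 0.841 and 0.827 FPKM in the vehicle libraries (log2 fold change 2.01, SE 0.066, limma adjusted p = 7.42e-10), whereas Kcnj16, the inward rectifier of the basolateral membrane, read 9.27, 8.4 and 8 FPKM with mifepristone, against 29.9, 29.8 and 31.2 FPKM with vehicle (log2 fold change -1.77, SE 0.048, limma adjusted p = 1.79e-10). Of 15 tested genes of aquaporins, urea transport and the vasopressin response 5 were higher and 5 lower. Aqp1, the water channel of the proximal tubule and thin limb, read 5.7, 5.47 and 5.93 FPKM in mifepristone-treated cells, against 39.1, 37.7 and 40.4 FPKM in vehicle-treated cells (log2 fold change -2.67, SE 0.042, limma adjusted p = 4.19e-12). Aqp3, the basolateral channel of principal cells, stayed below 0.4 FPKM in every library. Ptger4, a prostaglandin E2 receptor coupled to cAMP, read 1.58, 1.5 and 1.44 FPKM with mifepristone, against 6.26, 6.16 and 6.3 FPKM with vehicle (log2 fold change -1.75, SE 0.044, limma adjusted p = 9.46e-11). Aqp1 and Ptger4 both fell without overlap of the groups.

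The phosphodiesterases, which break down cAMP or cGMP, did not act as a group. Of 12 tested phosphodiesterases and adenylyl cyclases, 5 were higher and 7 lower. Beside the fall of Pde4c, Pde4d read 1.82, 1.88 and 1.6 FPKM in the mifepristone libraries, against 0.377, 0.363 and 0.438 FPKM in the vehicle libraries (log2 fold change 1.34, SE 0.07, limma adjusted p = 2.54e-08) and Pde4a read 1.27, 1.24 and 1.16 FPKM with mifepristone, against 0.407, 0.414 and 0.424 FPKM with vehicle (log2 fold change 0.91, SE 0.06, limma adjusted p = 1.83e-07). Within this family of cAMP phosphodiesterases the most abundant member with vehicle, Pde4c, thus fell below both of these with mifepristone, in FPKM, while Pde4b changed by -0.24. Adcy6, a calcium-inhibited adenylyl cyclase of the collecting duct, changed by -0.57. Slc2a1, the glucose transporter GLUT1, read 25.9, 27.2 and 27.4 FPKM in mifepristone-treated cells, against 74.7, 70.03 and 74 FPKM in vehicle-treated cells (log2 fold change -1.43, SE 0.045, limma adjusted p = 5.05e-10).

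**Figure D4:**
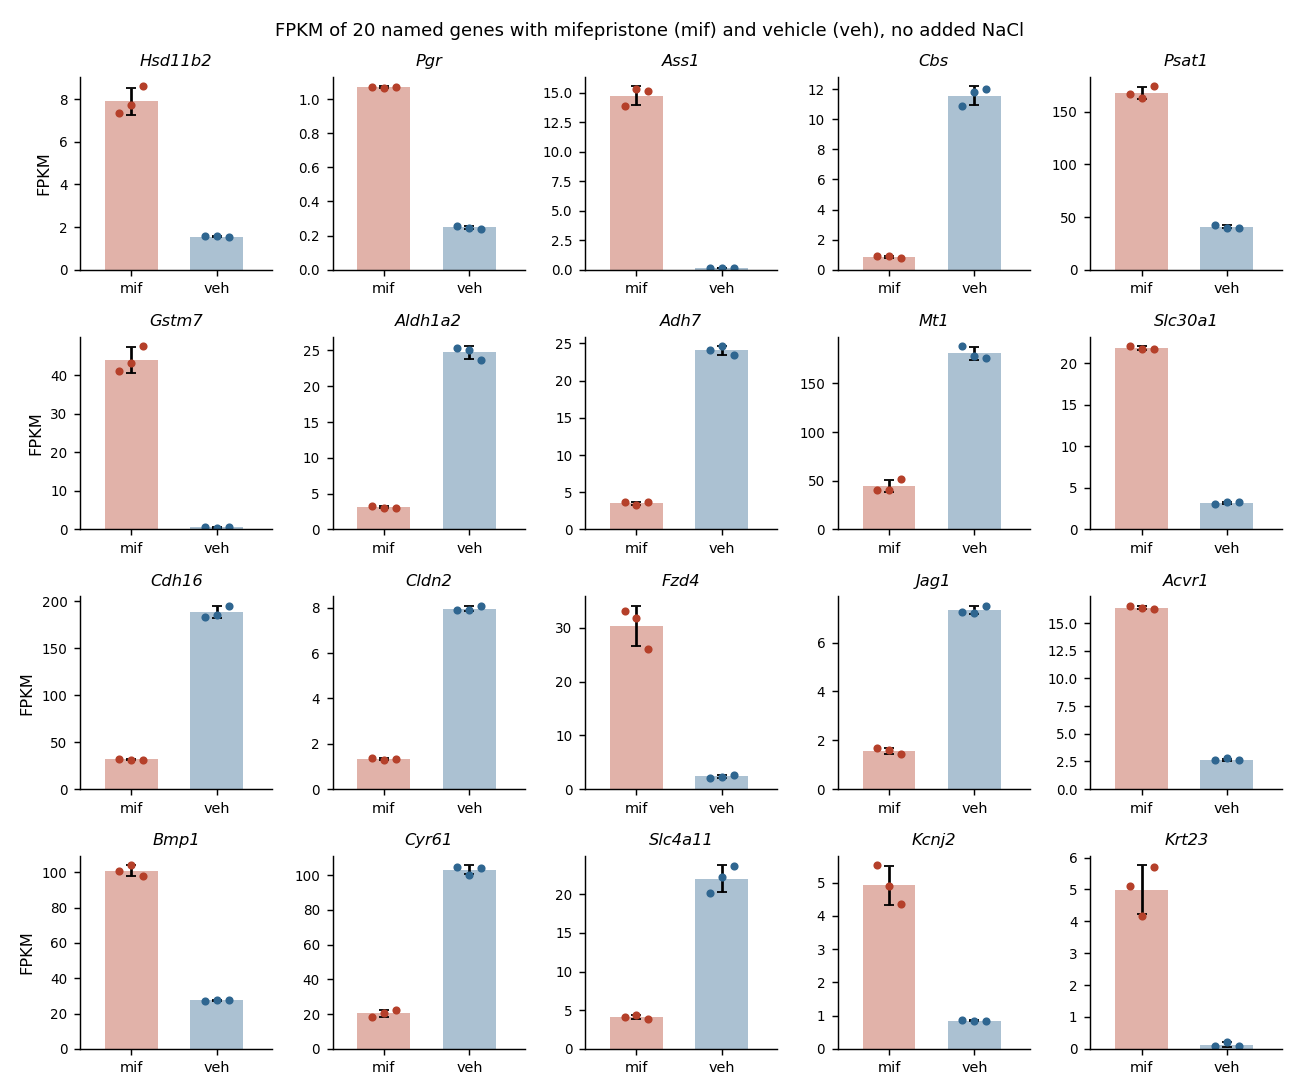
Deposited FPKM of 20 named genes in mifepristone (mif, left) and vehicle (veh, right) libraries without added NaCl; points are libraries, bars their mean and error bars the SD of 3. Each panel has its own axis from 0, and for every gene shown the points of the groups do not overlap, as for Aldh1a2 at 2.99 to 3.3 FPKM with mifepristone and 23.7 to 25.4 FPKM with vehicle.

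Among signalling pathways, 18 of 36 tested Wnt genes rose (50%) and 10 fell (27.8%), beside 28.3% and 31.5% of all tested genes, with a median log2 change of 0.17. Only 36 of 53 listed genes passed the filter, Wnt6 and Lef1 only through mifepristone libraries, so these shares are not those of the whole list. Fzd4, a Wnt receptor, read 33.2, 31.8 and 26.1 FPKM with mifepristone, against 2.15, 2.33 and 2.58 FPKM with vehicle (log2 fold change 3.43, SE 0.084, limma adjusted p = 8.99e-11). Wnt6, a ligand, read 4, 4.51 and 5.16 FPKM in the mifepristone libraries, against 0.116, 0.183 and 0.0563 FPKM in the vehicle libraries (log2 fold change 3.03, SE 0.096, limma adjusted p = 5.2e-10). Lef1, a DNA-binding partner of beta-catenin, read 1.94, 2.01 and 2 FPKM with mifepristone, against 0.31, 0.269 and 0.276 FPKM with vehicle (log2 fold change 1.66, SE 0.062, limma adjusted p = 1.66e-09), and its relatives Tcf7 and Tcf7l1 changed by 1.33 and 1.27. Axin2, a widely used target and inhibitor of the canonical pathway, changed by 1.07. Wnt7a changed by -1.10, and Ctnnb1, beta-catenin itself, read 128, 127 and 123 FPKM in mifepristone-treated cells, against 151, 147 and 149 FPKM in vehicle-treated cells (log2 fold change -0.24, SE 0.034, limma adjusted p = 9.42e-05). The call of Ctnnb1 was lost under quantile normalization, with a log2 change of -0.11.

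In the Notch pathway 10 of 23 tested genes were higher and 7 lower. Jag1, the ligand mutated in Alagille syndrome, read 1.66, 1.61 and 1.43 FPKM with mifepristone, against 7.26, 7.23 and 7.51 FPKM with vehicle (log2 fold change -1.92, SE 0.051, limma adjusted p = 1.55e-10). Dll1, another ligand, read 3.19, 3.8 and 3.43 FPKM in the mifepristone libraries, against 1.41, 1.32 and 1.23 FPKM in the vehicle libraries (log2 fold change 1.124, SE 0.065, limma adjusted p = 6.31e-08). Hey1, a target gene of Notch, read 4.28, 4.19 and 4.97 FPKM with mifepristone, against 0.848, 0.794 and 0.825 FPKM with vehicle (log2 fold change 1.91, SE 0.072, limma adjusted p = 2.04e-09), and Hes1, a second target, changed by 0.48. Notch1 changed by -0.99, whereas Notch2 read 34.8, 33.5 and 24.1 FPKM in mifepristone-treated cells, against 17.7, 20.7 and 22.2 FPKM in vehicle-treated cells (log2 fold change 0.58, SE 0.13, limma adjusted p = 0.00267), with the library of negative length trend lowest in each group. Ligands and receptors were therefore found on both sides, while both named target genes were higher.

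TGF-beta and BMP genes were called in 32 of 35 tested cases, 21 higher and 11 lower, with a median of 0.31. The receptors were prominent. Acvr1, the BMP type I receptor ALK2, read 16.6, 16.3 and 16.3 FPKM with mifepristone, against 2.59, 2.77 and 2.59 FPKM with vehicle (log2 fold change 2.42, SE 0.037, limma adjusted p = 4.19e-12). Bmpr1a, the type I receptor ALK3, read 59.1, 56.2 and 51.5 FPKM in the mifepristone libraries, against 18.3, 18 and 18.2 FPKM in the vehicle libraries (log2 fold change 1.59, SE 0.044, limma adjusted p = 2.15e-10). Tgfbr1 and Tgfbr2, the receptor pair of TGF-beta, changed by 1.25 and 0.75. Bmp1, a protease that processes procollagen, read 101, 104 and 98 FPKM with mifepristone, against 27, 27.7 and 27.7 FPKM with vehicle (log2 fold change 1.86, SE 0.04, limma adjusted p = 3.09e-11). Id1, Id2 and Id3, target genes of BMP signalling, changed by 0.38, 0.48 and 1.09, and Id4 by -0.52. Smad7, a feedback inhibitor of TGF-beta signalling, changed by -0.67, and Tgfb1, the ligand, by -1.04. The 4 named receptors and 3 of 4 Id genes were thus higher, while the ligand Tgfb1 and the inhibitor Smad7 were lower.

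Target genes of the Hippo pathway effectors YAP and TEAD included some of the larger falls among abundant transcripts. Cyr61, a matricellular protein, read 18.3, 20.6 and 22.2 FPKM in mifepristone-treated cells, against 105, 100.3 and 104 FPKM in vehicle-treated cells (log2 fold change -2.32, SE 0.058, limma adjusted p = 1.17e-10). Ctgf, connective tissue growth factor, read 8.96, 8.98 and 10.3 FPKM with mifepristone, against 34.3, 30.4 and 30.4 FPKM with vehicle (log2 fold change -1.70, SE 0.076, limma adjusted p = 8.47e-09). Ankrd1, a nuclear cofactor, read 28.2, 29.96 and 31.6 FPKM in the mifepristone libraries, against 124, 119 and 114 FPKM in the vehicle libraries (log2 fold change -1.98, SE 0.061, limma adjusted p = 4.48e-10). These 3 are the usual readouts of YAP activity, and for each of them every mifepristone value lay well below every vehicle value. Over the list 12 of 25 tested genes were lower and 9 higher, and the genes for the factors themselves were among the higher ones, with Yap1 at 0.59, Tead1 at 1.02 and Tead3 at 1.19. In the EGF receptor set 7 of 16 fell and 5 rose. Egfr read 12.6, 11.7 and 8.74 FPKM with mifepristone, against 17.6, 19.5 and 21.2 FPKM with vehicle (log2 fold change -0.80, SE 0.11, limma adjusted p = 0.000102), and Dusp4, Dusp6 and Spry1, feedback inhibitors of the pathway, changed by -1.03, -0.69 and -0.83.

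Cell adhesion changed through particular members rather than through the whole set. Cdh16, the cadherin specific to kidney epithelium, read 32.5, 31.2 and 31.2 FPKM in mifepristone-treated cells, against 183, 185 and 195 FPKM in vehicle-treated cells (log2 fold change -2.55, SE 0.04, limma adjusted p = 4.19e-12). Cdh6, a cadherin of the developing nephron, read 4.88, 4.28 and 3.39 FPKM with mifepristone, against 36.5, 46.2 and 56.4 FPKM with vehicle (log2 fold change -3.31, SE 0.16, limma adjusted p = 1.71e-08), and in each group the library with the negative length trend was the lowest. Cdh1, E-cadherin, read 80.3, 83.4 and 77.4 FPKM in the mifepristone libraries, against 66.9, 68.9 and 66.3 FPKM in the vehicle libraries (log2 fold change 0.25, SE 0.035, limma adjusted p = 8.96e-05). Epcam, another epithelial adhesion protein, read 134, 134 and 155 FPKM with mifepristone, against 146, 129.6 and 129 FPKM with vehicle and was not called (limma adjusted p = 0.454). Of 16 tested cadherin and desmosome genes 7 were higher and 6 lower, with a median of 0.00, so the large falls of both kidney cadherins stood beside small changes in E-cadherin.

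At the tight junction 11 of 22 tested genes were higher and 10 lower. Cldn2, which forms cation pores in leaky epithelium, read 1.39, 1.29 and 1.35 FPKM in mifepristone-treated cells, against 7.89, 7.91 and 8.09 FPKM in vehicle-treated cells (log2 fold change -2.20, SE 0.057, limma adjusted p = 1.28e-10). Cldn9 read 10.6, 11.2 and 12.3 FPKM with mifepristone, against 3.36, 2.9 and 3.2 FPKM with vehicle (log2 fold change 1.70, SE 0.071, limma adjusted p = 4.99e-09). The barrier claudin Cldn4 changed by 0.23 and Cldn7 by -0.46. Of 19 listed keratin and uroplakin genes 9 were tested. All of these were called, 6 higher and 3 lower, beside 59.7% of all tested genes called. Krt23 and Krt4 passed the filter only through mifepristone libraries, so these counts are not those of the whole list. Krt23 read 5.1, 4.18 and 5.7 FPKM in the mifepristone libraries, against 0.0885, 0.214 and 0.092 FPKM in the vehicle libraries (log2 fold change 3.12, SE 0.14, limma adjusted p = 7.92e-09) and Krt4, a keratin of stratified mucosa, read 1.13, 1.16 and 1.34 FPKM with mifepristone, against 0.0974, 0.105 and 0.0965 FPKM with vehicle (log2 fold change 1.51, SE 0.069, limma adjusted p = 8.76e-09). The simple-epithelial pair Krt8 and Krt18 changed by 0.73 and 0.30, whereas Krt7 and Krt19 changed by -0.60 and -0.54.

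Of 27 tested matrix genes 9 were higher (33.3%) and 8 lower (29.6%), close to 28.3% and 31.5% of all tested genes. Timp3, an inhibitor of matrix proteases, read 20.9, 19.2 and 14.8 FPKM in mifepristone-treated cells, against 2.86, 3.14 and 3.25 FPKM in vehicle-treated cells (log2 fold change 2.38, SE 0.11, limma adjusted p = 8.02e-09). Col4a2, a collagen chain of basement membranes, read 2.83, 2.8 and 2.41 FPKM with mifepristone, against 6.24, 6.87 and 7.25 FPKM with vehicle (log2 fold change -1.20, SE 0.07, limma adjusted p = 7.33e-08), and its partner chain Col4a1 changed by -0.38. Nid2, which links laminin and collagen, read 1.78, 1.81 and 1.49 FPKM in the mifepristone libraries, against 7.26, 8.12 and 8.06 FPKM in the vehicle libraries (log2 fold change -1.92, SE 0.067, limma adjusted p = 1.13e-09). Col4a2, Col4a1 and Nid2 were thus lower, while the list as a whole had a median log2 change of 0.03. Dcn, decorin, a fibroblast proteoglycan, read 5.49, 5.44 and 6.13 FPKM with mifepristone, against 0.0775, 0.107 and 0.0493 FPKM with vehicle (log2 fold change 3.42, SE 0.069, limma adjusted p = 2.18e-11). Dcn was the only one of 9 fibroblast markers tested, and the summed level of the 9 was 5.71 to 6.42 FPKM in mifepristone libraries and 0.404 to 0.506 FPKM in vehicle libraries, so nearly all of that sum was Dcn itself.

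Complement, acute phase and antimicrobial genes rose in 10 of 13 tested cases, with 2 lower and a median of 0.58. C3, the central complement component, read 22.7, 24 and 19.3 FPKM in mifepristone-treated cells, against 2.69, 2.85 and 3.32 FPKM in vehicle-treated cells (log2 fold change 2.70, SE 0.083, limma adjusted p = 4.16e-10). Cp, ceruloplasmin, and Lcn2, an iron-binding marker of tubule injury, changed by 0.58 and 0.58. Wfdc2, an epithelial secretory protein, changed by -0.41 and Agt, angiotensinogen, by -0.71. Only 13 of 31 listed genes passed the filter, and some of those entered through the mifepristone libraries, so this share is not that of the whole list. Among chemokines and cytokines 11 of 17 tested were higher and 3 lower. Of 36 listed genes 17 passed the filter, Il18 only through mifepristone libraries, so the same limit holds. Cx3cl1, the membrane-bound chemokine fractalkine, read 18.8, 19.1 and 18.1 FPKM with mifepristone, against 4.44, 5.27 and 5.16 FPKM with vehicle (log2 fold change 1.82, SE 0.06, limma adjusted p = 7.57e-10), and Il18, an inflammasome cytokine, read 2.31, 2.46 and 2.88 FPKM in the mifepristone libraries, against 0.162, 0.219 and 0 FPKM in the vehicle libraries (log2 fold change 2.30, SE 0.15, limma adjusted p = 1.83e-07).

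Cytokine signalling genes included receptors and the feedback inhibitor of the STAT3 axis. Socs3, that inhibitor, read 22.4, 24.1 and 24.4 FPKM with mifepristone, against 4.37, 4.44 and 5.02 FPKM with vehicle (log2 fold change 2.24, SE 0.055, limma adjusted p = 8.86e-11). Stat3 read 18, 18.3 and 16.1 FPKM in mifepristone-treated cells, against 9.76, 10.3 and 10.5 FPKM in vehicle-treated cells (log2 fold change 0.75, SE 0.05, limma adjusted p = 2.28e-07). Il6ra, the interleukin 6 receptor, read 3.16, 3.23 and 2.95 FPKM with mifepristone, against 0.411, 0.445 and 0.471 FPKM with vehicle (log2 fold change 1.94, SE 0.06, limma adjusted p = 4.31e-10), and Lif, a cytokine of the same family, read 4.33, 4.28 and 3.8 FPKM in the mifepristone libraries, against 2.25, 2.13 and 2.36 FPKM in the vehicle libraries (log2 fold change 0.75, SE 0.063, limma adjusted p = 1.44e-06). Each of these 4 genes was higher with mifepristone, without overlap of the groups. Il1r1, the interleukin 1 receptor, read 17.5, 16.8 and 14.6 FPKM with mifepristone, against 4.7, 4.67 and 4.71 FPKM with vehicle (log2 fold change 1.69, SE 0.056, limma adjusted p = 7.63e-10). Over the list of receptors, JAK, STAT and SOCS genes 15 of 36 were higher and 9 lower. Csf1r, a receptor of macrophages that tubule cells also express, read 6.59, 6.5 and 5.75 FPKM in mifepristone-treated cells, against 23.9, 25.7 and 26.7 FPKM in vehicle-treated cells (log2 fold change -1.94, SE 0.056, limma adjusted p = 2.98e-10), and the 8 leukocyte markers summed to 10.1 to 10.6 FPKM in mifepristone libraries and 27.3 to 29.8 FPKM in vehicle libraries, mostly Csf1r. In class I antigen presentation 10 of 20 were higher and 3 lower, led by the non-classical gene H2-T23 at 1.33, while B2m, the shared light chain, read 351, 337 and 394 FPKM with mifepristone, against 413, 355 and 354 FPKM with vehicle and was not called (limma adjusted p = 0.642).

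Cytosolic ribosomal proteins, the protein part of the ribosome, were lower in most of their tested members. Of 64 tested cytosolic ribosomal protein genes 57 were lower and none higher, with a median log2 change of -0.38 and a range of -0.60 to 0.06. Rpl23 read 334, 343 and 409.9 FPKM in the mifepristone libraries, against 585, 537 and 507 FPKM in the vehicle libraries (log2 fold change -0.59, SE 0.08, limma adjusted p = 7.55e-05), and Rpl32 read 395, 406 and 486 FPKM with mifepristone, against 681, 632 and 613 FPKM with vehicle (log2 fold change -0.58, SE 0.077, limma adjusted p = 5.65e-05). These are short, abundant transcripts and their values follow the length trend, with mifepristone C and vehicle A the highest of their groups. Without those 2 libraries 62 were lower and none higher, and under quantile normalization 43 were lower and 2 higher. By comparison 9 of 49 tested nuclear genes of oxidative phosphorylation were higher and 4 lower, with a median of 0.03. Without mifepristone C 5 were higher and 12 lower, and without vehicle B or without vehicle C 5 were higher.

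DNA replication genes fell in 20 of 43 tested cases and rose in 4, by small amounts, with a median of -0.10. E2f2 read 4.79, 5.13 and 4.83 FPKM in mifepristone-treated cells, against 10.8, 10.9 and 10.6 FPKM in vehicle-treated cells (log2 fold change -1.06, SE 0.039, limma adjusted p = 1.73e-09), and Rrm2, the small subunit of ribonucleotide reductase, changed by -0.60. Ccne2, cyclin E2, read 30.5, 29.6 and 30.8 FPKM with mifepristone, against 15.8, 15.8 and 15.2 FPKM with vehicle (log2 fold change 0.94, SE 0.034, limma adjusted p = 1.38e-09). Myc read 10.5, 10.7 and 10.7 FPKM in the mifepristone libraries, against 27.1, 25.2 and 24.9 FPKM in the vehicle libraries (log2 fold change -1.24, SE 0.069, limma adjusted p = 4.92e-08), and Cdkn1a, the cell cycle inhibitor p21, read 29.1, 31.8 and 32 FPKM with mifepristone, against 65.4, 65.2 and 65 FPKM with vehicle (log2 fold change -1.06, SE 0.056, limma adjusted p = 3.24e-08). A growth-promoting gene and an inhibitor of the cycle were thus both lower. Klf10, an early response gene of TGF-beta, read 60.7, 60.8 and 59 FPKM in mifepristone-treated cells, against 12.5, 13 and 12.6 FPKM in vehicle-treated cells (log2 fold change 2.20, SE 0.037, limma adjusted p = 5.8e-12). Among cytosolic heat shock genes, Bag3, a co-chaperone, read 17.8, 17.7 and 18.6 FPKM with mifepristone, against 6.24, 6.45 and 5.84 FPKM with vehicle (log2 fold change 1.47, SE 0.039, limma adjusted p = 1.55e-10), with 9 of 22 tested higher (40.9%) and 4 lower (18.2%), and the number lower was 7 without mifepristone C and 2 without vehicle A. Of 31 unfolded protein and stress genes 8 were higher (25.8%) and 12 lower (38.7%), and the number higher was 5 without vehicle B.

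The effect of mifepristone without added NaCl differed from its effect with NaCl at 4374 of the 14044 tested genes (31.1%), by the contrast of the 2 effects in the same fit at an adjusted p of 0.05. The 2 effects share no library. That count depended on mifepristone C: without that library it was 6784. Large effects that did not differ detectably included Sohlh1, at 6.56 without and 6.45 with NaCl, Npy2r, at -2.28 without and -2.27 with NaCl, and Acvr1, at 2.42 without and 2.42 with NaCl. A difference that misses the threshold does not show that the effects are equal.

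Several rises described above were larger without NaCl. Mgst1 changed by 2.85 without and 0.28 with NaCl (difference 2.58, SE 0.14, limma adjusted p = 3.64e-07). Klf9 changed by 1.37 without and -0.03 with NaCl (difference 1.40, SE 0.1, limma adjusted p = 4.2e-06). For Klf9 the effect with NaCl was near 0. Stat3 followed the same pattern, with 0.75 without and 0.08 with NaCl (difference 0.67, SE 0.071, limma adjusted p = 5.55e-05). In contrast Hsd11b2 changed by 2.03 without and 3.48 with NaCl (difference -1.46, SE 0.095, limma adjusted p = 1.56e-06).

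Among the falls, Cyr61 changed by -2.32 without and -1.04 with NaCl (difference -1.28, SE 0.082, limma adjusted p = 1.5e-06), and Ctgf by -1.70 without and -0.44 with NaCl (difference -1.26, SE 0.11, limma adjusted p = 1.1e-05). Efhd1 changed by -3.06 without and -1.53 with NaCl (difference -1.53, SE 0.096, limma adjusted p = 1.12e-06). These falls were larger without NaCl. Col4a2 had effects of opposite direction, -1.20 without and 0.65 with NaCl (difference -1.85, SE 0.099, limma adjusted p = 4.14e-07). Slc17a1, a phosphate and urate transporter, fell more with NaCl, -1.005 without and -3.52 with NaCl (difference 2.51, SE 0.084, limma adjusted p = 2.61e-08). Without NaCl it read 0.324, 0.259 and 0.272 FPKM with mifepristone, against 1.18, 1.05 and 0.997 FPKM with vehicle. On recovered reads with voom that fall was -1.90, so the scale understates it. The metallothionein Mt1 also fell more with NaCl, -2.03 without and -2.99 with NaCl (difference 0.97, SE 0.17, limma adjusted p = 0.00144).

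**Figure D5:**
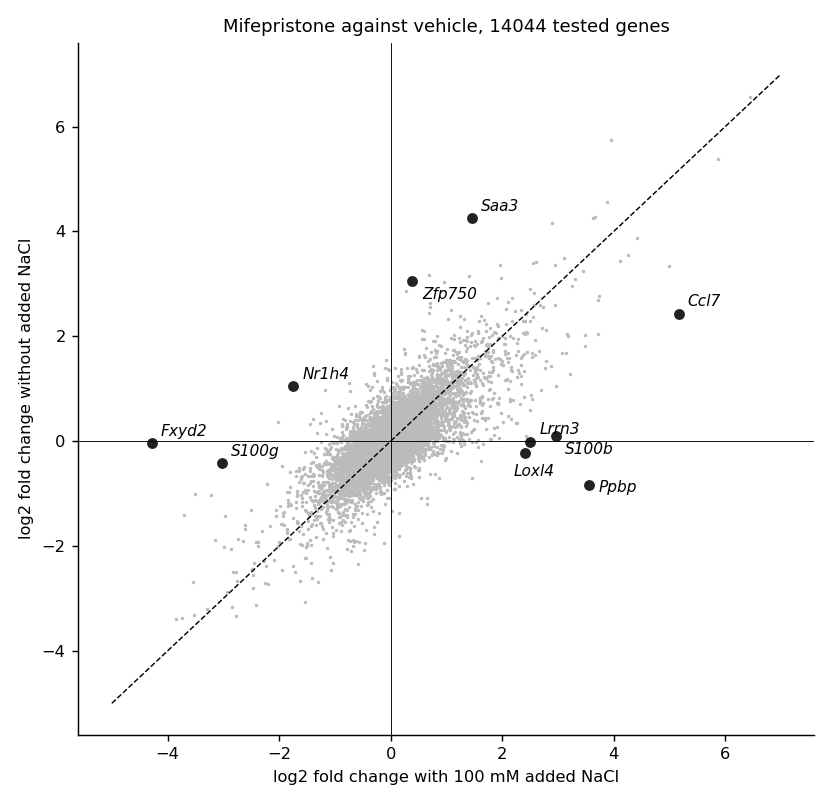
Log2 fold change of mifepristone against vehicle without added NaCl (vertical) and with 100 mM added NaCl (horizontal) for the 14044 tested genes, 1 grey point per gene, with the dashed line of equal effects. The 10 named genes have the largest called differences in either direction, from -4.40 for Ppbp to 4.25 for Fxyd2.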

How the data were processed

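RNA from IMCD3 cells was sequenced in 12 polyadenylated libraries, of which the 6 without added NaCl are compared here. Per the submitters' processing notes, Trimmomatic 0.32, STAR 2.4.2a, SAMtools 1.0 and DESeq2 1.12.3 were used with GRCm38 (mm10). The sources used here do not say which step each served, or which program, annotation and strand setting were used for counting. The deposited expression values are FPKM by the authors. The authors' deposited tables also hold a mean normalized signal per gene over the 12 libraries (baseMean), a log2 fold change, an adjusted p-value and a mark of a nearby ChIP peak, per the file headers. Mutant columns were matched to the mifepristone samples by their letter and by the study's design, and 0 value columns were without a sample. Of the gene identifiers 98.5% matched GENCODE M21.

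Genes were tested with limma 3.58.1 in R 4.3.3 on log2(FPKM + 0.5) with trended, robust empirical Bayes moderation. The 4 groups of 3 libraries were fitted together with 8 residual degrees of freedom. Genes needed at least 1 FPKM in at least 3 libraries, tests were two-sided, and p-values were adjusted by Benjamini-Hochberg over all 14044 genes and called under 0.05. A fold change on this scale understates the change of low genes. Whole reads were recovered from FPKM and the authors' mean signal, with 100% of values within 0.05 of a whole number, and limma-voom on them was an alternative and ranked the largest changes. The test was also run on simulated counts with known changes, and the outcome is not given here. Tables and plots used Python 3.11.15, pandas 2.3.3, numpy 2.4.6, scipy 1.17.1 and matplotlib 3.10.9.

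The members and gene lists were chosen with earlier results of these data known. The genes named were the 12 largest rises and falls within the limits given with them, up to 4 called members per list with the largest change, a fixed set of 42 genes, and the 5 largest differences each way between the media, some left out for length. Orm3, Pcbd1, Tmed6 and the other list members given by a log2 change alone were chosen for their role after their values were seen. Near-identical copies (Gstm, Orm, Akr1c and Hspa1 genes, Mt1 and Mt2) and antisense partners may share reads, and 20.4% to 29.4% of the exon bases of Cdkl1, H2-T22, Dll1, Spry1, Timp3 and Ctgf lie in exons of another gene. The level of the mutated gene itself is not reported here.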

Additional observations from a re-analysis of the deposited data

Results flagged for a closer look

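For 10 genes the effect of mifepristone differed between the media, by limma's contrast of the effect without minus the effect with NaCl in the fit of all 12 libraries, and the difference was among the 5 largest in its direction. Those genes are given here as values, and whether any technical feature of the libraries takes part in them was not tested.

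Ppbp, a platelet-derived chemokine, read 2.42, 2.31 and 2.33 FPKM with mifepristone and 5.05, 4.83 and 3.99 FPKM with vehicle without NaCl, and 95.5, 99.1 and 95.7 FPKM with mifepristone and 7.65, 6.76 and 8.97 FPKM with vehicle in NaCl. Its effects had opposite signs, -0.84 without and 3.56 with NaCl (difference -4.40, SE 0.13, limma adjusted p = 1.41e-08). S100b, a calcium-binding protein, stayed at or below 0.119 FPKM without NaCl and reached 5.07, 3.91 and 4.09 FPKM with mifepristone in NaCl, against 0.136, 0.135 and 0.0856 FPKM with vehicle in NaCl (difference -2.87, SE 0.13, limma adjusted p = 1.62e-07). Lrrn3, a neuronal leucine-rich repeat protein, did not exceed 0.0211 FPKM without NaCl and read 3.08, 3.13 and 2.88 FPKM with mifepristone and 0.169, 0.0909 and 0.107 FPKM with vehicle in NaCl (difference -2.52, SE 0.097, limma adjusted p = 4.81e-08). Both genes were near silence in both groups without NaCl. Loxl4, a lysyl oxidase that crosslinks matrix, changed by -0.23 without NaCl, which missed 0.05 (limma adjusted p = 0.0686), and by 2.41 with NaCl (difference -2.63, SE 0.14, limma adjusted p = 3.92e-07). Without NaCl it passed 0.05 as lower with library quality weights, without mifepristone B or without vehicle A. Ccl7, a monocyte chemokine, rose in both media, by 2.43 without and 5.17 with NaCl (difference -2.74, SE 0.25, limma adjusted p = 1.62e-05). On recovered reads with voom that last difference was -0.36 with an adjusted p of 0.70. The gene read at or below 0.0864 FPKM in vehicle libraries without NaCl.

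Fxyd2, the gamma subunit of the sodium pump, did not exceed 0.0707 FPKM without NaCl and read 5.01, 5.12 and 5.21 FPKM with mifepristone and 106, 106 and 114 FPKM with vehicle in NaCl (difference 4.25, SE 0.078, limma adjusted p = 2.27e-10). Its fall in NaCl therefore has no counterpart that could be measured without NaCl. S100g, the calcium-binding protein calbindin-D9k, read 0.0458, 0.176 and 0.126 FPKM in the mifepristone libraries, against 0.481, 0.233 and 0.257 FPKM in the vehicle libraries without NaCl and was not called there, and it changed by -3.02 with NaCl (difference 2.61, SE 0.31, limma adjusted p = 0.000112). Nr1h4, the bile acid receptor FXR, rose by 1.06 without NaCl and changed by -1.75 with NaCl (difference 2.80, SE 0.1, limma adjusted p = 3.41e-08). Saa3, an acute phase protein, changed by 4.25 without and 1.45 with NaCl (difference 2.80, SE 0.26, limma adjusted p = 2.33e-05), and Zfp750 by 3.05 without and 0.38 with NaCl (difference 2.68, SE 0.12, limma adjusted p = 9.99e-08).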

How the results depend on the processing

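Over 18 alternative settings the number of called genes stayed between 5671, where a mean of at least 5 FPKM was required, and 9433, with no filter on low values. With no filter 4770 genes were higher and 4663 lower, whereas in the fit as reported 3970 were higher and 4421 lower. The stricter filter left fewer genes to test, and its counts at 2-fold were 324 higher and 157 lower. A pseudocount of 0.1 gave 741 higher and 434 lower at 2-fold, and voom on recovered reads gave 794 and 466. With only the 6 libraries in the fit 7022 genes were called. Leaving out 1 library at a time gave 7621 to 9182 called genes, 3587 to 4336 higher and 4003 to 4846 lower, and at 2-fold 549 to 613 higher and 328 to 335 lower.

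The number of genes whose effect differed between the media was 7156 with library quality weights, whose estimation stopped before full convergence, 2807 with a mean of at least 5 FPKM, 2618 at an adjusted p of 0.01, and 3558 to 6784 when 1 library was left out, the highest without mifepristone C. The causes were not tested, apart from the smaller number of genes under the stricter filter and the stricter threshold itself. Of 3550 values of named genes under the alternatives 2 turned round, Phgdh to 0.18 and B2m to 0.23 under quantile normalization, and neither was called in the fit as reported. Per1 and Scd1 lost their calls at an adjusted p of 0.01, Scd1 also with only 6 libraries, and Ctnnb1 under quantile normalization. Calls were gained by Epcam, Fxyd2 and S100g under quantile normalization, by Fasn without mifepristone C, and by Loxl4 as given above. Of 1656 counts over lists 62 moved by more than 1.5 times, 30 of them under the stricter filter, Wnt genes for example to 8 higher and 4 lower. Counts of oxidative phosphorylation genes ranged from 5 to 18 higher and 3 to 12 lower.

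Whether the letters A, B and C pair the libraries is not settled here. Correlations of same-letter deviations from the group means were -0.5, 0.176 and -0.475, and mifepristone C correlated best with vehicle A, at 0.609. Mifepristone C and vehicle A share the negative length trend, so these correlations cannot decide on pairing. A fit with the letter as a replicate block called 7972 genes, 3776 higher and 4196 lower, and 3724 differences between the media. Depth limits genes near 3 reads, for which no change could be detected.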

Other observations

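Several lists outside the pathways above are given as counts with examples. Among prostaglandin and arachidonate enzymes 4 of 13 tested were higher (30.8%) and 5 lower (38.5%), close to 28.3% and 31.5% of all tested genes. Ptgds, the lipocalin-type prostaglandin D synthase, read 31.3, 30.2 and 35.9 FPKM with mifepristone, against 9.03, 8.1 and 7.88 FPKM with vehicle (log2 fold change 1.90, SE 0.079, limma adjusted p = 4.98e-09). Ptgr1, a prostaglandin reductase, read 1.18, 1.16 and 1.41 FPKM in mifepristone-treated cells, against 0.322, 0.175 and 0.152 FPKM in vehicle-treated cells (log2 fold change 1.29, SE 0.1, limma adjusted p = 1.11e-06). Ptgs2, the inducible cyclooxygenase, was not called. Of 19 tested organic ion and solute transporters 8 were higher (42.1%) and 8 lower (42.1%), with Slco3a1, an organic anion transporter, at 1.06 and Abcc3, an export pump for conjugates, at 0.99.

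Among immediate early genes 11 of 27 tested were higher (40.7%) and 10 lower (37.0%). Nr4a1, an orphan nuclear receptor, read 5.8, 6.72 and 6.48 FPKM with mifepristone, against 2.4, 2.69 and 2.53 FPKM with vehicle (log2 fold change 1.17, SE 0.065, limma adjusted p = 5.21e-08), whereas Egr1 changed by -0.70 and Jun by -0.30, and Fos was not called. Of 34 tested p53 targets and apoptosis regulators 13 were higher (38.2%) and 9 lower (26.5%). Bid, a proapoptotic protein, read 23.3, 23.9 and 25.1 FPKM in the mifepristone libraries, against 12, 11.3 and 11.3 FPKM in the vehicle libraries (log2 fold change 1.03, SE 0.045, limma adjusted p = 6.74e-09), and Gdf15, a stress cytokine, read 13.1, 13.2 and 15.9 FPKM with mifepristone, against 38.6, 34.6 and 33.6 FPKM with vehicle (log2 fold change -1.31, SE 0.08, limma adjusted p = 1.1e-07). Bst1, an ectoenzyme listed with the loop of Henle and distal tubule, read 11.3, 10.9 and 12.2 FPKM in mifepristone-treated cells, against 4.66, 4.5 and 4.56 FPKM in vehicle-treated cells (log2 fold change 1.24, SE 0.043, limma adjusted p = 1.1e-09).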
